A study of Mus musculus with 6 samples.

Results

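The genes described here make, remove and sense retinoic acid, the active form of vitamin A. The group holds 9 genes named by their annotated symbols, namely the retinaldehyde dehydrogenases Aldh1a1, Aldh1a2 and Aldh1a3, the related Aldh1b1, the retinal reductase gene Dhrs3, the degrading enzyme gene Cyp26b1 and the receptor genes Rara, Rarb and Rxra. They are 9 of the 18193 genes that have a probe set of their own on the Affymetrix array used, and were measured by 13 of its 45101 probe sets, each a group of probes for 1 transcript. The genes were grouped by function, but selected on a comparison of αMHC-Cre hearts with hearts without Cre whose log2 differences were already known, so these differences are given as a description and carry no p-value.

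The study compared 3 hearts of Fog2flox/delta mice carrying the alpha MHC Cre transgene (αMHC-Cre hearts 1 to 3) with 3 hearts of Fog2flox/delta mice without Cre (no Cre hearts 1 to 3), with total RNA of the heart apex on 1 array per heart. All 6 animals were males of 6 to 7 weeks. Fog2, official symbol Zfpm2, encodes a cofactor of GATA transcription factors. The αMHC promoter is active in cardiomyocytes, so Cre can remove the floxed segment in those cells and not in the other cells of the apex. Both groups carried 1 floxed and 1 deleted Fog2 allele, so the hearts without Cre were not wild type. In these groups Cre was never present without a floxed allele, and what Cre does by itself cannot be told apart from what the deletion does. Values are log2 signals, differences are αMHC-Cre minus no Cre, and a gene is represented by its brightest tested probe set.

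Retinoic acid is made from retinol in a pair of steps. Retinol dehydrogenases oxidise retinol to retinal, a step that Dhrs3 runs backwards, and the Aldh1a enzymes oxidise retinal irreversibly to retinoic acid. The acid binds receptors of the Rar family, which sit on DNA together with Rxr partners, and Cyp26 enzymes break it down. In the embryonic heart Aldh1a2 is the main source of retinoic acid and is found in the epicardium. Rarb, Cyp26b1 and Dhrs3 are themselves known to be induced by retinoic acid in several tissues, which is why they are often read as response genes.

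The textbook response element lies in the promoter of Rarb. RefSeq promoter windows (GRCm38.p6, 250 bases before to 50 bases after a gene's start) were found for 8 of the 9 genes, 15 windows in all, and were searched on both strands for direct repeats of the half-site AGGTCA. Half-sites with the letters GGGTCA were accepted as well, as were AGTTCA and also GGTTCA, in either place of the repeat. A repeat with 5 bases between the half-sites was found in 32 of the 32851 windows of all genes (0.0974%) and in 1 window of the group, that of Rarb. It is shown first, with the repeat in capitals. Its match, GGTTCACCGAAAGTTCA, starts at position -53 from the start site. The single window of Aldh1a2 follows, with 1 of the 2 windows of Aldh1a1, these being the Aldh1a genes with tested probe sets. There the capitals mark ATGCAAAT, the octamer motif, which was chosen after the sequences had been read and stands in 1.74% of all windows. The other window of Aldh1a1 holds no octamer and is not printed.

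Rarb, chr14:16575427-16575726, minus strand: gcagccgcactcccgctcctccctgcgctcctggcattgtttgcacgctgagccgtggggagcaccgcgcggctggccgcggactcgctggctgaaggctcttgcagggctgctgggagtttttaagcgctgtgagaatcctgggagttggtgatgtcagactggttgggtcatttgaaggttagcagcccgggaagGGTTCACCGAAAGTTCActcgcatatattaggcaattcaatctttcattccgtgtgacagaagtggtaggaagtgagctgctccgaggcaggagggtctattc
Aldh1a2, chr9:71215539-71215838, plus strand: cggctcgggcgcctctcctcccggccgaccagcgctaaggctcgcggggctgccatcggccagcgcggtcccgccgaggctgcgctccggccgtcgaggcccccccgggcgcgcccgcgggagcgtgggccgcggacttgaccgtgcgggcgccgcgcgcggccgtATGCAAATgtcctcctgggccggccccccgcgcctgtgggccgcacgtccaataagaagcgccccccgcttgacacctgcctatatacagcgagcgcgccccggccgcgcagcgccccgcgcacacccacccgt
Aldh1a1, chr19:20601718-20602017, plus strand: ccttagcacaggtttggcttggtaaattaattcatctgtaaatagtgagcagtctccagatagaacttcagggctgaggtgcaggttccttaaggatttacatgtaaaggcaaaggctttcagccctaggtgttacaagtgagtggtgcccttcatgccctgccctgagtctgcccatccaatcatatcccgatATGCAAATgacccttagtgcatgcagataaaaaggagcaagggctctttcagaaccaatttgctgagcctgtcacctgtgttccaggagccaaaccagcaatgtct

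No window of the group held a repeat with 1 or with 2 bases between the half-sites, which 0.222% and 0.268% of all windows held. GATA motifs (AGATAA with T allowed as the first base and G as the last, on either strand) stood in 2 windows of the group, both of Aldh1a1, against 29.8% of all windows. The single window of Aldh1b1 held none of the repeats, GATA motifs or octamers. These matches describe the letters of the windows only.

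Tissue markers and Zfpm2 were read first. The 8 listed cardiomyocyte markers were Myl2, Myl3, Myh6, Tnni3, Tnnt2, Actc1, Ryr2 and Pln. All read between 12.27 and 13.90 in every heart, against array maxima of 13.97 to 14.00. None passed the test by limma (0 of 8 also at an unadjusted p under 0.05). Close to the maxima differences may be compressed, and these markers check neither which hearts carried Cre nor the heart chamber sampled. The 2 probe sets of Zfpm2 moved in opposite directions: one read 5.46, 5.61 and 5.65 in the αMHC-Cre hearts against 6.34, 6.40 and 6.65 in the hearts without Cre, and the other 10.71, 10.48 and 10.50 against 8.86, 8.83 and 8.95. Which exons they cover was not used here, so neither checks the deletion. Array medians lay between 5.72 and 5.81. Over the tested probe sets (not independent of each other), arrays correlated at 0.980 to 0.987 within groups and at 0.964 to 0.973 between them.

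In the αMHC-Cre hearts, 2 aldehyde dehydrogenase genes rose, while mean differences of the response genes were small. The 95% interval of Cyp26b1 was wide (-0.60 to 0.46), so its values do not show that it was unchanged. Aldh1b1 was 4.33-fold and Aldh1a2 3.12-fold higher than in the hearts without Cre. On the log2 scale, Dhrs3, Cyp26b1 and Rarb differed by -0.07 to 0.11. Of the 8 genes with a tested probe set, 2 passed the threshold of a limma fit over all probe sets (adjusted p under 0.05), both higher, against 4.2% of 13062 genes tested that passed as higher and 6.24% that passed in either direction. For 3 of the 8 genes there was no overlap between the groups, as for 26.1% of all tested genes. The median difference of the 8 was 0.04, with 4 above and 4 below 0, and that of all tested genes was -0.01. Since this contrast was known when the genes were picked, nothing is read from these counts.

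Aldh1b1 encodes a mitochondrial aldehyde dehydrogenase that oxidises acetaldehyde and can also use retinal. It read 9.21, 8.90 and 9.001 in αMHC-Cre hearts 1 to 3, against 7.46, 6.67 and 6.63 in no Cre hearts 1 to 3. The groups lay well apart, with the lowest αMHC-Cre heart above the highest heart without Cre. The means were 9.04 ± 0.16 and 6.92 ± 0.47 (SD, n = 3 each), a difference of 2.11 ± 0.22 (SE) with a 95% interval of 1.63 to 2.60. Of the 13062 genes, 46 had a larger positive difference.

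Aldh1a2 encodes the cytosolic enzyme that makes most retinoic acid in the embryo. It read 7.59, 7.58 and 8.46 in the αMHC-Cre hearts, against 6.61, 5.66 and 6.44 in the hearts without Cre. Here too the groups did not overlap, but each held 1 heart that stood off, αMHC-Cre heart 3 on the high side and no Cre heart 2 on the low side. The means were 7.88 ± 0.50 and 6.23 ± 0.51 (SD, n = 3 each), and the difference was 1.64 ± 0.29 (SE), with a 95% interval of 0.98 to 2.31. It was 1.35 without αMHC-Cre heart 3 and 1.36 without no Cre heart 2.

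Aldh1a1, whose product also oxidises retinal and is abundant in many adult tissues, read 8.87, 8.58 and 8.96 in the αMHC-Cre hearts and 8.62, 8.02 and 8.27 in the hearts without Cre. The groups overlapped, since no Cre heart 1 read above αMHC-Cre heart 2. The difference of 0.50 ± 0.17 (SE; 95% interval 0.10 to 0.89) did not pass the threshold. Aldh1a7, a closely related mouse gene whose transcript could share probes with Aldh1a1, differed by 0.21 ± 0.14 (SE, limma adjusted p 0.50). Cross-hybridisation between them was not tested.

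Aldh1a3, the remaining retinaldehyde dehydrogenase, was too dim to test on all 3 of its probe sets, whose means over the 6 hearts lay under the filter at 5.16. The brightest read 5.38, 5.24 and 5.22 in the αMHC-Cre hearts and 5.04, 4.11 and 4.35 in the hearts without Cre, without overlap. The next read 3.87, 3.94 and 4.61 against 2.20, 4.10 and 4.17, and the dimmest 1.86, -0.58 and -1.20 against 3.77, 1.15 and 3.53. The probe sets thus went in different directions, at levels where log2 differences are unsteady, and no level of Aldh1a3 is compared here.

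**Figure D1:**
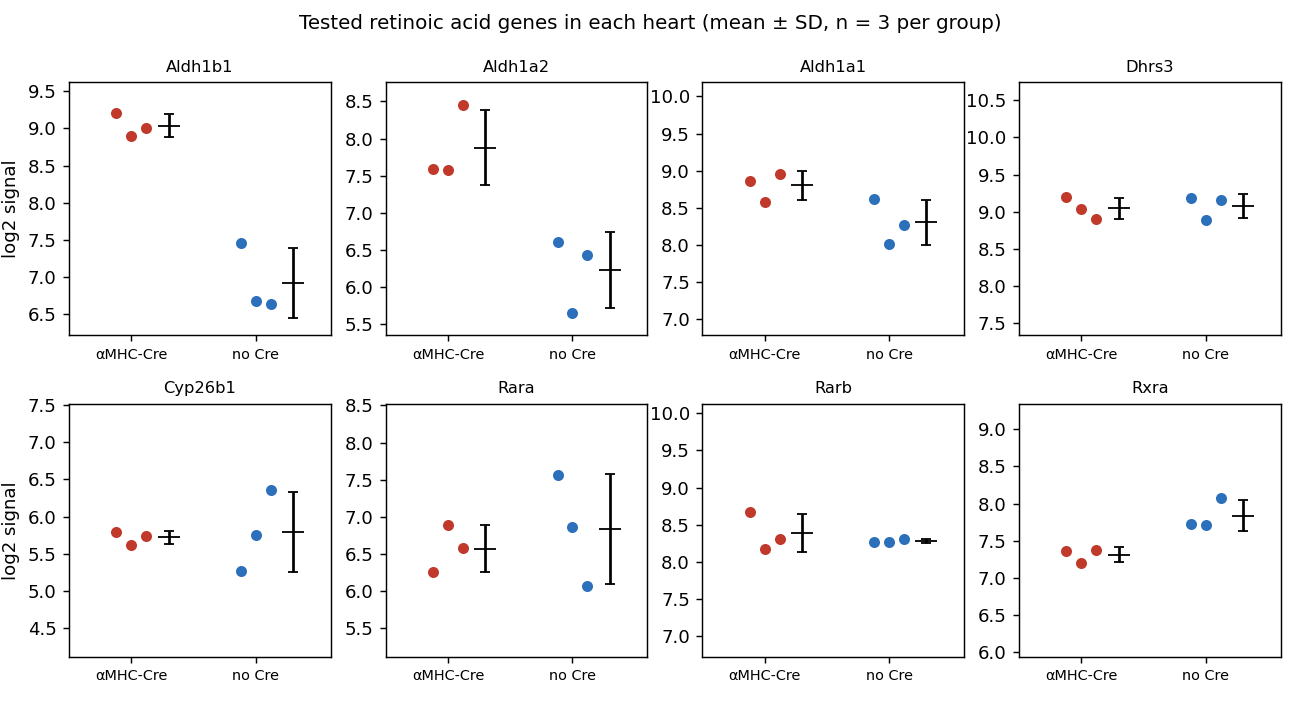
Log2 signal (vertical axes, each spanning the same number of units) of the 8 tested genes, with 1 point per heart, αMHC-Cre hearts left of hearts without Cre, and the mean ± SD of each group (n = 3) as a bar. Only Aldh1b1, Aldh1a2 and Rxra show groups that do not overlap, the first 2 higher and Rxra lower with αMHC-Cre.

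Dhrs3, which reduces retinal back to retinol, read 9.19, 9.04 and 8.91 in the αMHC-Cre hearts and 9.18, 8.89 and 9.15 in the hearts without Cre. The groups lay on top of each other, with a difference of -0.03 ± 0.13 (SE) and a 95% interval of -0.33 to 0.27. Cyp26b1, which oxidises retinoic acid for removal, read 5.79, 5.62 and 5.74 against 5.27, 5.75 and 6.35. The αMHC-Cre hearts lay inside the range of the others, whose spread (SD 0.54) exceeded theirs (SD 0.09 in αMHC-Cre hearts). Its difference of -0.07 ± 0.23 (SE; 95% interval -0.60 to 0.46) became 0.21 without no Cre heart 3 and -0.33 without no Cre heart 1.

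Rarb, the receptor gene with the direct repeat printed above, read 8.67, 8.18 and 8.31 in the αMHC-Cre hearts and 8.27, 8.27 and 8.31 in the hearts without Cre. Only αMHC-Cre heart 1 stood above the narrow range without Cre by more than 0.01. The difference was 0.11 ± 0.14 (SE), with a 95% interval of -0.22 to 0.43.

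Rara, the most widely expressed retinoic acid receptor, read 6.25, 6.89 and 6.58 in the αMHC-Cre hearts and 7.56, 6.87 and 6.08 in the hearts without Cre, which spanned a wider range (SD 0.32 in αMHC-Cre hearts and 0.74 in hearts without Cre). Its difference of -0.26 ± 0.33 (SE) ran between -0.64 without no Cre heart 3 and 0.10 without no Cre heart 1. Rxra, the shared partner of the Rar receptors, read 7.37, 7.20 and 7.38 in the αMHC-Cre hearts, against 7.73, 7.71 and 8.08 in the hearts without Cre. All αMHC-Cre hearts lay below all hearts without Cre on this probe set. The difference of -0.52 ± 0.14 (SE; 95% interval -0.83 to -0.21) did not pass the threshold in the fit over all probe sets. A dimmer tested probe set of Rxra differed by -0.12 ± 0.15 (SE) with overlapping groups, and another was too dim to test.

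**Figure D2:**
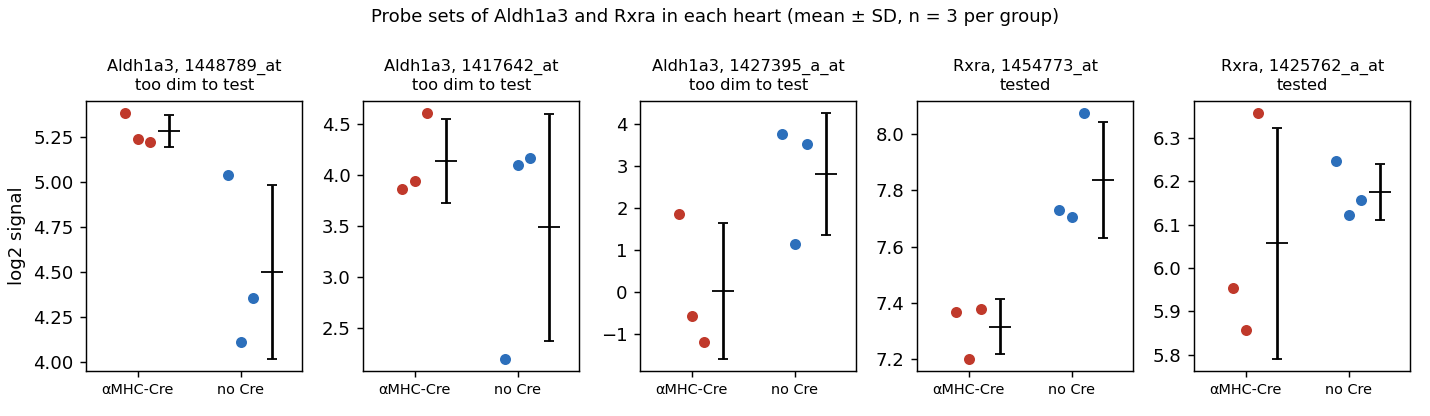
Log2 signal (vertical axes, scaled separately) of the 3 probe sets of Aldh1a3 and the 2 tested ones of Rxra, with 1 point per heart, αMHC-Cre left, and bars for the mean ± SD (n = 3). The Aldh1a3 probe sets lie under the filter and were not tested, and of the 2 Rxra probe sets only the brighter one separates the groups.

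The other genes of the pathway were taken from 6 lists with 65 genes, of which 36 could be tested. By limma, 1 rose and 2 fell in the αMHC-Cre hearts, against 4.2% of all genes higher and 2.04% lower, and the median difference of the 36 was -0.07. Most carriers of retinoids were too dim to test. Of 12 uptake, storage and binding genes 3 were tested, and Ttr, the plasma carrier of retinol-binding protein and thyroxine, rose. It read 8.69, 8.90 and 7.89 in the αMHC-Cre hearts against 5.45, 6.60 and 3.92 in the hearts without Cre, a difference of 3.17 ± 0.56 (SE, limma adjusted p 0.013). All αMHC-Cre hearts lay above the others, which differed widely among themselves. No Cre heart 3 lay under the filter level of 5.16, where differences are unsteady. The call was lost without αMHC-Cre heart 1 or 2 (adjusted p up to 0.075), with trend and robust variance, and without a filter (adjusted p up to 0.17). The other tested probe sets of Ttr passed too, at 3.28, 2.96 and 3.25 (limma adjusted p 0.015, 0.0051 and 0.011). They averaged 5.55, 6.41 and 6.62 over all hearts, and their means without Cre lay under the filter level of 5.16. These passed the filter through the αMHC-Cre hearts and are not read as separate support.

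None of the 10 tested retinol and retinal oxidoreductases passed by limma (0 higher and 3 lower at an unadjusted p under 0.05). Those with the largest differences were Dhrs4, a peroxisomal reductase that also acts on retinal, at -0.52 ± 0.13 (SE, limma adjusted p 0.054) and Rdh14, a retinol dehydrogenase family member, at -0.32 ± 0.11 (0.16). Of 3 other aldehyde dehydrogenases, Aldh2, the mitochondrial enzyme that clears acetaldehyde, fell. It read 10.53, 10.28 and 10.28 in the αMHC-Cre hearts and 10.80, 10.86 and 10.98 in the hearts without Cre. These groups did not overlap, and the difference was -0.52 ± 0.12 (SE, limma adjusted p 0.046), a call that no fit without a heart kept (adjusted p 0.051 to 0.18). It was also lost with the mean over probe sets, with the replicate block and without a filter. Of the other 4 tested probe sets of Aldh2, 1 passed at -0.91 ± 0.17 (SE, limma adjusted p 0.017), while those at -0.37, -0.13 and -0.07 did not (adjusted p 0.17, 0.75 and 0.87).

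Among 10 tested receptors and cofactors, Rxrg, the Rxr family member typical of striated muscle, fell. It read 8.11, 7.80 and 8.09 in the αMHC-Cre hearts against 8.80, 8.82 and 9.16 in the hearts without Cre. The groups were clearly apart, with a difference of -0.93 ± 0.15 (SE, limma adjusted p 0.0079) that kept its call without any single heart. Without a filter the call of Rxrg was lost (limma adjusted p 0.096). Cyp26a1, the other Cyp26 gene on the array, was too dim to test and averaged 4.69 ± 0.28 in the αMHC-Cre hearts and 5.05 ± 0.33 in the hearts without Cre (SD, n = 3 each).

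Known targets of retinoic acid were listed separately, and of 21 such genes 10 could be tested. None passed by limma (2 higher and 1 lower at an unadjusted p under 0.05), and their median difference was 0.12. The largest differences were those of the homeobox genes Meis1, at 0.46 ± 0.13 (SE, limma adjusted p 0.080), and Hoxa4, at -0.29 ± 0.20 (0.53).

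**Figure D3:**
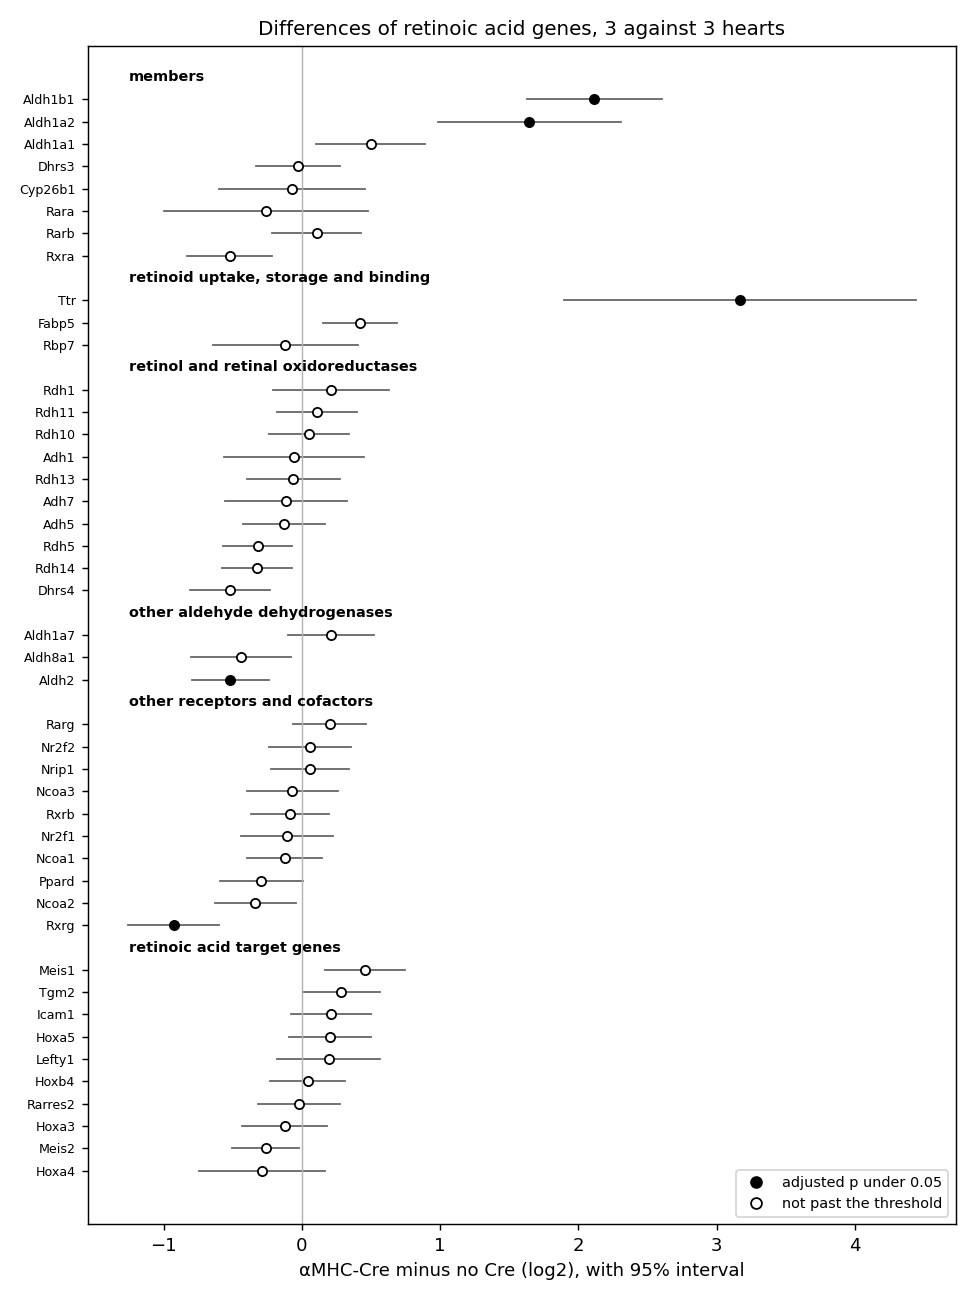
Differences between αMHC-Cre hearts and hearts without Cre on the log2 scale (horizontal axis) with 95% intervals for the 8 tested members and the 36 tested genes of the pathway lists, 3 hearts against 3. Filled circles passed the limma threshold over all probe sets, which for the members is a description. Aldh1b1, Aldh1a2 and Ttr lie far to the right, Rxrg and Aldh2 are filled on the left, and none of the target genes, which lie between -0.29 and 0.46, is filled.

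The apex holds several cell types, and in bulk RNA fewer cells of a type and less RNA per cell cannot be told apart. Aldh1a2 marks the epicardium, so its markers were set beside it. Of 10 epicardial and mesothelial markers 2 could be tested, and Upk1b, a uroplakin, rose by 0.63 ± 0.15 (SE, limma adjusted p 0.041), a call kept in only 1 of 6 fits that left out a heart. The summed unlogged signal of the list was 611 to 677 in αMHC-Cre hearts and 429 to 468 in hearts without Cre. Without Upk1b and Krt18, left out after their values were known, the other 8 summed to 257 to 298 in αMHC-Cre hearts and 243 to 281 in hearts without Cre. Wt1, a defining epicardial transcription factor, averaged 5.26 ± 0.36 in αMHC-Cre hearts and 5.04 ± 0.22 in hearts without Cre (SD, n = 3 each), and Tbx18 differed by 0.03. Krt18, a keratin, read 6.27, 7.11 and 6.90 against 3.93, 2.07 and 3.68, under the filter. Wt1, Tbx18 and Krt18 are named here with their values known. Of the 10 epicardial markers, 8 lay under the filter, and without detection calls their presence was not tested.

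Of 10 fibroblast markers, all tested, 6 rose by limma, against 4.2% of all tested genes, namely Col1a1 by 1.41, Col3a1 by 1.35, Col1a2 by 1.28, Mfap5 by 1.02, Lum by 0.74 and Dpt by 0.55, and their list summed to 22651 to 26759 in αMHC-Cre hearts and 14199 to 15995 in hearts without Cre. Dpt lost its call in each of the 6 fits without a heart, with quantile normalization, with the replicate block and without a filter, and Mfap5 lost its call without αMHC-Cre heart 2 (adjusted p 0.063) and without a filter. Col1a1, Col3a1, Col1a2 and Lum kept their calls without any single heart but lost them without a filter (limma adjusted p 0.11, 0.12, 0.051 and 0.080). The fibroblast markers that did not pass were Tcf21, Dcn and the receptor genes Pdgfra and Pdgfrb. Their differences were 0.54, 0.33, 0.21 and -0.0014. Of 6 atrial markers 3 were tested, and Myl7 and Nppa rose while Myl4 differed by -0.02 ± 0.13 (SE, limma adjusted p 0.96). Myl7 read 10.72, 11.42 and 10.92 in the αMHC-Cre hearts against 4.34, 3.39 and 3.42 in the hearts without Cre, which lie under the filter, so the size of its change is not given. Sln, Bmp10 and Dkk3 were too dim to test. Dkk3 read 5.85, 5.79 and 5.80 in the αMHC-Cre hearts against 4.16, 4.08 and 4.20 in the hearts without Cre, without overlap. Sln and Bmp10 differed by 0.43 and -0.52, with overlapping groups. The list summed to 15604 to 16269 in αMHC-Cre hearts and 3207 to 4735 in hearts without Cre. Nppa and Myl7 were then left out after their values were known. The other 4 summed to 434 to 487 in αMHC-Cre hearts and 379 to 490 in hearts without Cre. Myl4, the brightest of these 4, averaged 8.47 and 8.49 and makes up most of that sum, which says little of the dimmer genes. None passed by limma among 10 endothelial, 8 macrophage and 7 smooth muscle and pericyte markers (1, 0 and 1 at an unadjusted p under 0.05). The part of any of these cell types in the differences of Aldh1b1 and Aldh1a2 was not tested.

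The genes most like the extremes of the group were found by distance, the root mean square difference over the 6 hearts after each gene was centred on its mean without Cre. Nearest to Aldh1b1 were Nppa at 0.124, Met at 0.137 and Masp1 at 0.161, against a median of 1.54 over 13061 genes. Masp1, a complement-activating protease, differed by 2.07 ± 0.20 (SE) and Nppa, the atrial natriuretic peptide gene, by 2.03 ± 0.17. Met, the hepatocyte growth factor receptor, averaged 6.49 ± 0.30 in αMHC-Cre hearts and 4.43 ± 0.35 in hearts without Cre (SD, n = 3 each), the last under the filter level, where differences are unsteady. Nppa read up to 13.72, near the array maxima, where differences may be compressed. Nearest to Rxra were Pts at 0.0608, Ier3 at 0.0756 and Hdlbp at 0.0774, against a median of 0.406, and these differed by -0.55, -0.60 and -0.52. Distances of this kind rest mainly on the size of the group difference.

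**Figure D4:**
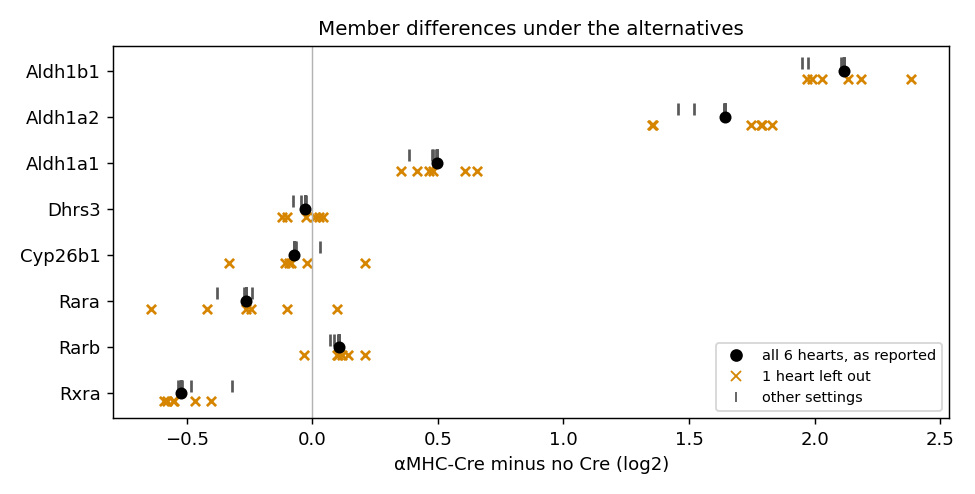
Difference between αMHC-Cre hearts and hearts without Cre (log2, horizontal axis) for the 8 tested genes, with all 6 hearts (black points), with 1 heart left out (crosses) and under the other settings (ticks). Aldh1b1 stays between 1.95 and 2.38 and Aldh1a2 between 1.35 and 1.83, while Cyp26b1, Dhrs3, Rara and Rarb cross 0.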

How the data were processed

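Per the submitters' processing notes, the authors made the deposited log2 values with PLIER, a summary of a probe set's probes. Base 2 is inferred from the maxima near 14. Its settings, background correction and scaling between arrays: not given in the sources used here. Each array held 749 to 902 values below 0, and no detection calls were used. The number of arrays limits precision.

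After removal of 64 controls, the dimmest 40% of probe sets by mean over the 6 arrays (18015, mean under 5.16) were dropped, leaving 27022. The groups were fitted by limma (version 3.58.1, R 4.3.3; lmFit, eBayes) without covariates, with two-sided p-values adjusted by Benjamini-Hochberg over tested probe sets at 0.05. The procedure was tested on simulated data. Symbols came from the platform annotation (34945 probe sets with 1 symbol, 932 with several, 9160 with none, only the first named), and all 9 members were found. Promoter sequences are from RefSeq. The hearts are labelled biological replicates.

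The members, lists and tests were chosen with earlier results of these data known. Named were all members, pathway and marker genes past the threshold (in pathway lists without any, the 2 with the largest differences), and the 3 genes nearest to the members with the highest and lowest difference. Wt1, Tbx18 and Krt18 were chosen after seeing values, Aldh1a7 and Cyp26a1 are relatives of members, and the fibroblast and atrial lists are given in full. Alternatives were median centring, quantile normalization, a 60% filter or none, robust variance with a trend, weights per array, a block for the replicate number, 16 added to the unlogged signal, the mean over probe sets and leaving out each heart.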

Additional observations from a re-analysis of the deposited data

How the results depend on the processing

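The member genes past the limma threshold numbered 2 with all hearts, 2 in every fit that left out 1 heart, and 1 without a filter on dim probe sets, where Aldh1a2 lost its call and Aldh1b1 kept it. Aldh1b1 passed in 15 of 15 alternatives and Aldh1a2 in 14 of 15. These fits use the same hearts on which the members were picked, so such counts describe the settings only. Rxra passed in 5 of 15 (quantile normalization, the 60% filter, trend and robust variance, array weights and 16 added), which made the count 3. The median difference of the members lay between -0.07 and 0.16 with 1 heart left out. Of the pathway genes, 3 passed with all hearts, 5 with the 60% filter, 5 with trend and robust variance, and 0 by limma without a filter (12 at an unadjusted p under 0.05); leaving out 1 heart gave 1 to 2, with 1 without αMHC-Cre heart 2. Of the marker genes, 9 passed with all hearts, 3 without a filter and 6 to 8 with 1 heart left out. More probe sets are tested without a filter, 18193 genes against 13062, and 152 genes passed in all against 815. The causes of this loss and of the other shifts were not tested. Quantile normalization and median centring moved the median of all genes by under 0.1. With the replicate block, 2 member genes, 2 pathway genes and 7 marker genes passed. Hearts of the same number correlated in their deviations at -0.06, 0.21 and -0.19, so the numbers were not taken to pair hearts. Planned settings that leave out a gene gave no value for Cyp26b1 under the 60% filter. Low signals limit Aldh1a3, Cyp26a1, Cyp26b1 and most retinoid carriers.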
